A study of Mus musculus with 18 samples.

Results

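Glucose handling was examined in the kidney through 30 genes: 19 of glycolysis and its lactate exit, 4 of gluconeogenesis and fructose use, and 7 of the pentose phosphate pathway. They were taken by gene symbol from the 49585 gene rows of the normalized table, each symbol matched exactly 1 row, and all 30 passed the filter of a mean above 10 normalized reads, leaving them among 16984 genes tested. The kidneys came from *Lin28A* OE mice (Lox-stop-Lox-TetOn-*Lin28A* with Six2Cre) and from control mice that carry Lox-stop-Lox-TetOn-*Lin28A* without a Cre. Both genotypes drank doxycycline (Dox) at 1 g/L, for 1, 2 or 5 weeks, and each of the 6 groups had 3 libraries, 18 in all. By the study's methods Six2Cre opens the stop cassette in the nephron progenitors and the nephrons that descend from them, so collecting duct, stroma, vessels and blood cells are not targeted, while whole kidneys were sequenced. The age and sex of these mice are not given in the sources used here, and nothing states that kidneys were pooled.

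Glycolysis splits glucose into pyruvate and, through lactate dehydrogenase, lactate, with hexokinase, phosphofructokinase and pyruvate kinase as its one-way steps. Gluconeogenesis bypasses these steps with its own enzymes, and the kidney's proximal tubule, along with the liver, is where the body makes glucose, while the distal nephron is more glycolytic. The pentose phosphate pathway takes glucose 6-phosphate through an oxidative branch that yields NADPH and a non-oxidative branch that interconverts sugars.

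The *Lin28a* gene, whose reads do not tell transgene from endogenous transcript, was at 55659 ± 13523, 80282 ± 32761 and 545 ± 109 normalized reads (SD, n = 3) in OE kidneys at 1, 2 and 5 weeks and at 21.8 ± 6.42, 17.3 ± 2.55 and 23.8 ± 6.5 (SD, n = 3) in controls. A normalized read is a read divided by its library's size factor, and libraries held 21176911 to 28686369 reads over the genes. Of the members *Hk3* had the fewest, 663 reads over the 18 libraries. The Y-linked gene *Ddx3y* was above 100 normalized reads in 3, 2 and 2 control and in 2, 1 and 2 OE libraries at the 3 times, so the groups differ in their mix of sexes. Nothing in the labels says that libraries of a group came from separate animals, and p-values measure the spread between libraries. Proximal tubule markers moved with OE: the summed level of 16 of them, *Lrp2*, *Cubn* and *Slc34a1* among them, ran at 1 week from 750352 to 824034 in controls against 173484 to 369554 with OE, at 2 weeks from 599128 to 1124246 against 26299 to 61271, and at 5 weeks from 618428 to 694151 against 200563 to 472401, with none at 0. Markers of macrophages moved the other way, 16 genes summing to 3995 to 5794 in the 9 controls and 15255 to 55779 in the 9 OE libraries. In bulk RNA, fewer cells of a type and less RNA per cell cannot be told apart, and the part of cell content in the results that follow was not tested.

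Most of the 30 genes fell in OE kidneys at 2 weeks, and fewer did at 1 and 5 weeks. At 1 week 2 of the 30 rose and 12 fell at an adjusted p under 0.05 from limma, where 18.7% of all tested genes rose and 15.6% fell. At 2 weeks 4 rose and 20 fell, against 28.9% and 28.8% of all genes, and at 5 weeks 2 rose and 10 fell, against 7.67% and 7.9%. The median log2 fold change of the 30 was -0.20, -0.85 and -0.31 at the 3 times, beside -0.02, 0.01 and 0.02 over all genes tested. At a log2 fold change beyond 1, 2 members were higher and 3 lower at 1 week (8.21% and 5.02% of all genes), 3 and 12 at 2 weeks (14.8% and 16.8%), while at 5 weeks 2 were lower (3.03%) and 0 higher (4.82%) in limma, with edgeR and DESeq2 also giving 0 higher. *Hk2* and *Hk3* were beyond this fold at 5 weeks but short of the threshold, *Hk2* alone at an unadjusted p under 0.05. Every OE library lay below every control of its week for 17, 20 and 15 members, where 24.1%, 29.9% and 17.8% of all genes did, and above every control for 4, 4 and 3, where 25.4%, 31% and 17.3% of all genes did. Each of these was at p = 0.1 in an exact two-sided permutation test of 3 against 3, the smallest such a test allows. Fold changes, each with its standard error (SE), are on the log2(value + 1) scale, which understates those of genes with few reads.

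**Figure D1:**
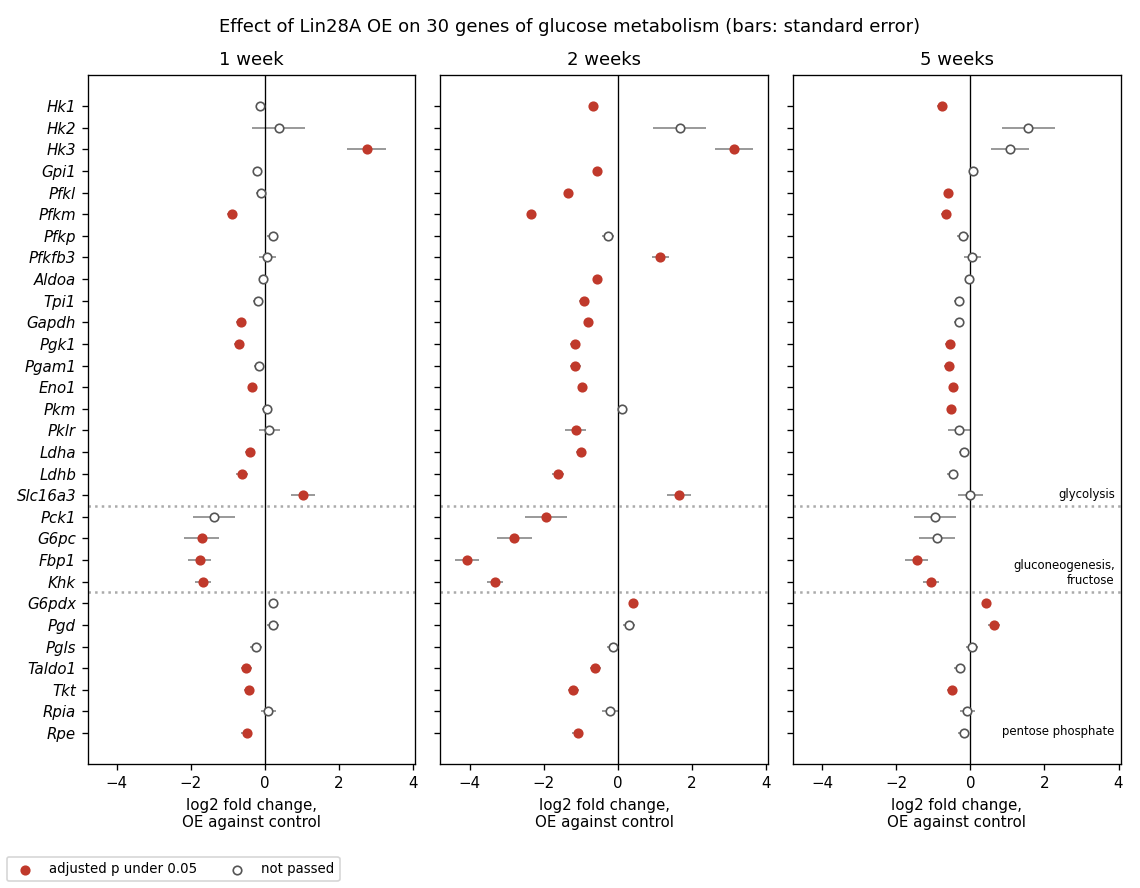
Log2 fold change of the 30 genes in OE against control kidneys (x axis) at 1, 2 and 5 weeks of Dox, with bars for the standard error and filled points for an adjusted p under 0.05 from limma. Filled points left of 0 number 12, 20 and 10, and those right of 0 number 2, 4 and 2, though under quantile normalization *Aldoa* at all 3 times, *Ldha* at 1 and 5 weeks, and *Hk1*, *Gpi1* and *Tpi1* at 1 week lie right of 0 and *Slc16a3* at 5 weeks lies left of it.

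As a group the gluconeogenic enzymes and ketohexokinase had lower medians than the glycolytic and pentose phosphate genes. At the 3 times 15.6%, 28.8% and 7.9% of all tested genes fell and 18.7%, 28.9% and 7.67% rose in limma. Of the 4 gluconeogenic and fructose genes 3 fell at 1 week, 4 at 2 weeks and 2 at 5 weeks. Their median log2 fold change was -1.69, -3.06 and -1.01. Of these genes 0 rose at any time, at an unadjusted p under 0.05 in limma or with edgeR or DESeq2 either. In controls they were among the most abundant members per length: the median over the 9 controls, in normalized reads per kilobase of exon, was 13193 for *Fbp1*, 10269.6 for *Pck1*, 7443 for *Khk* and 3489.8 for *G6pc*, where *Ldhb* held the highest of all 30 at 22094. Over the 9 controls this level ran from 11701 to 20265 for *Fbp1*, from 5817 to 18491 for *Pck1* and from 6097 to 9380.0 for *Khk*, so that *Pck1* overlapped both of the others, which lay apart.

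Their promoters are shown because these genes fell together. From RefSeq (GRCm38.p6), 43 promoters of 250 bases before to 50 after a start were matched to all 30 members and searched on both strands for GTTAAT, the core of the HNF1 site, ACGTG, the core of the HIF site, and TGACNNNGC, the core of the antioxidant response element. ACGTG can lie inside TGACNNNGC, and GTTAAT contains neither. GTTAAT or its complement ATTAAC stood in 3 of the 43 members' promoters and in 7.1% of all 32851 promoters, and the 3 belong to *Pck1*, *G6pc* and *Khk*. Each printed run is 5′ to 3′ on the gene's strand, with GTTAAT or ATTAAC in capitals, and the *Fbp1* promoter holds none.
Pck1 promoter (chr2:173152823-173153122, plus strand): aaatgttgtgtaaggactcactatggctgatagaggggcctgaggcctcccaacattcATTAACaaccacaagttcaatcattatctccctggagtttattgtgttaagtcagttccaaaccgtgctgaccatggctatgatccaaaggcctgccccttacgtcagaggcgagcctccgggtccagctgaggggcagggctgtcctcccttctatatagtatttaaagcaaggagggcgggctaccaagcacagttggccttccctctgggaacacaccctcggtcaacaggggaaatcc
G6pc promoter (chr11:101367466-101367765, plus strand): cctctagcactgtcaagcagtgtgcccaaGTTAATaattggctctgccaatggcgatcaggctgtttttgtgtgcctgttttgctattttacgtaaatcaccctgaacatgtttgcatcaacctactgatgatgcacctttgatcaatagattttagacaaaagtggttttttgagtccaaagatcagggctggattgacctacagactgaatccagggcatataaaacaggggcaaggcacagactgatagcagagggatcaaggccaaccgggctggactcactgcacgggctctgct
Khk promoter (chr5:30921309-30921608, plus strand): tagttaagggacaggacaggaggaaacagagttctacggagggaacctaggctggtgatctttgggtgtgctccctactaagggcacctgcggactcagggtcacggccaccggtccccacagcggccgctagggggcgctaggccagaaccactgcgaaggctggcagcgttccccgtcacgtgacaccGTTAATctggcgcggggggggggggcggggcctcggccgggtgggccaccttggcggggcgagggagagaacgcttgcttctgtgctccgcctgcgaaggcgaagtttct
Fbp1 promoter (chr13:62888233-62888532, minus strand): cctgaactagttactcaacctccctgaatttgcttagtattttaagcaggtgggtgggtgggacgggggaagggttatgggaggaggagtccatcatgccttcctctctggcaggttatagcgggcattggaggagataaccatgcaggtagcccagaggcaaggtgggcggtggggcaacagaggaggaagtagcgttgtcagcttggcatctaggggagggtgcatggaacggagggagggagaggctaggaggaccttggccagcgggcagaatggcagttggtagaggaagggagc
The matches begin 192 bases before the start in *Pck1*, 221 in *G6pc* and 60 in *Khk*. A match is a string of letters, and binding was not measured.

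*Fbp1*, which encodes fructose-1,6-bisphosphatase and reverses the phosphofructokinase step, lies on chromosome 13 from 62864753 to 62888282 of GRCm38. At 1 week its normalized reads were 19915, 22703 and 22912 in controls and 8291, 6738 and 4731 in OE kidneys. At 2 weeks the controls held 22183, 28482 and 34491 and the OE kidneys 1108, 1637 and 2561, and at 5 weeks 21555, 20786 and 22454 stood against 13922, 6352 and 5527. No OE library reached a control of its week, and OE replicate 1 at 5 weeks came nearest. On the log2 scale *Fbp1* changed by -1.76 (SE 0.32, limma adjusted p = 5.17e-04), -4.06 (SE 0.32, limma adjusted p = 3.08e-08) and -1.45 (SE 0.32, limma adjusted p = 0.00642), so that at 2 weeks OE kidneys kept 5.98% of the control level. In limma's interaction test the log2 effect at 2 weeks minus that at 1 week was -2.30 (adjusted p = 0.00612), and the effect at 5 weeks minus that at 2 weeks was 2.61 (adjusted p = 5.01e-04).

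*Khk*, ketohexokinase, phosphorylates fructose and lies on chromosome 5 from 30921431 to 30931248. Control kidneys had 13375, 10982 and 13723 normalized reads at 1 week, then 12465, 15439.9 and 16856 at 2 weeks, then 13431, 10956 and 11455 at 5 weeks. OE kidneys had 4673, 4273 and 3154, then 1222, 1519 and 1746, then 8437, 4456 and 4895. The groups did not overlap at any time. It fell by a log2 change of -1.67 (SE 0.22, limma adjusted p = 3.09e-05) at 1 week, -3.32 (SE 0.22, limma adjusted p = 6.26e-09) at 2 weeks, where 10% of the control level remained, and -1.07 (SE 0.22, limma adjusted p = 0.00392) at 5 weeks. The effect moved by -1.65 (adjusted p = 0.00463) from 1 to 2 weeks and by 2.26 (adjusted p = 7.68e-05) from 2 to 5 weeks.

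*G6pc*, the catalytic subunit of glucose-6-phosphatase that releases free glucose, lies on chromosome 11 from 101367561 to 101377903. Normalized reads were 8171, 10136 and 8329 in controls against 3522, 2697 and 2091 in OE kidneys at 1 week, 14682, 8424 and 8298 against 487, 2108 and 3002 at 2 weeks and 12099.6, 7689 and 9324 against 5005, 7308 and 3633 at 5 weeks. All OE libraries lay below their controls, and OE replicate 1 at 2 weeks was the lowest of the 18. It fell at 1 and 2 weeks, by log2 changes of -1.71 (SE 0.48, limma adjusted p = 0.011) and -2.79 (SE 0.48, limma adjusted p = 9.80e-05), the latter at -2.00 (adjusted p = 6.25e-05) without OE replicate 1. At 5 weeks it missed the threshold with -0.90 (SE 0.48, limma adjusted p = 0.217), and the 95% interval was -1.91 to 0.10.

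*Pck1*, cytosolic phosphoenolpyruvate carboxykinase, which turns oxaloacetate into phosphoenolpyruvate, lies on chromosome 2 from 173153048 to 173159273 and spread widely between libraries. At 1 week controls held 19946, 25333 and 33585 normalized reads and OE kidneys 9471, 11639 and 8958, without overlap, and the log2 change of -1.37 (SE 0.56, limma adjusted p = 0.0715) missed the threshold. It passed at 1 week with DESeq2 at -1.39 (adjusted p = 0.0138), and in limma against all 9 controls, a reference chosen after seeing the data, at -1.91 (adjusted p = 0.003). At 2 weeks 63406, 57397 and 35214 in controls stood against 5077, 19407 and 23179, a log2 change of -1.94 (SE 0.56, limma adjusted p = 0.00743). That call rested on OE replicate 1, without which the value was -1.25 (adjusted p = 0.0523), and under quantile normalization it was -1.21 (adjusted p = 0.0859). At 5 weeks the groups overlapped, with 48572, 39030.3 and 34102 in controls and 30464, 41487 and 7065 in OE kidneys, where replicate 3 stood apart from the others (-0.95, adjusted p = 0.275 from limma). Without that library the value was -0.17 (adjusted p = 0.865). OE replicate 1 at 2 weeks also had the lowest summed proximal tubule markers of its group, 26299 against 61271 and 55925, and 1.97% of its reads from mitochondrial genes against 3.53% and 3.77%.

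**Figure D2:**
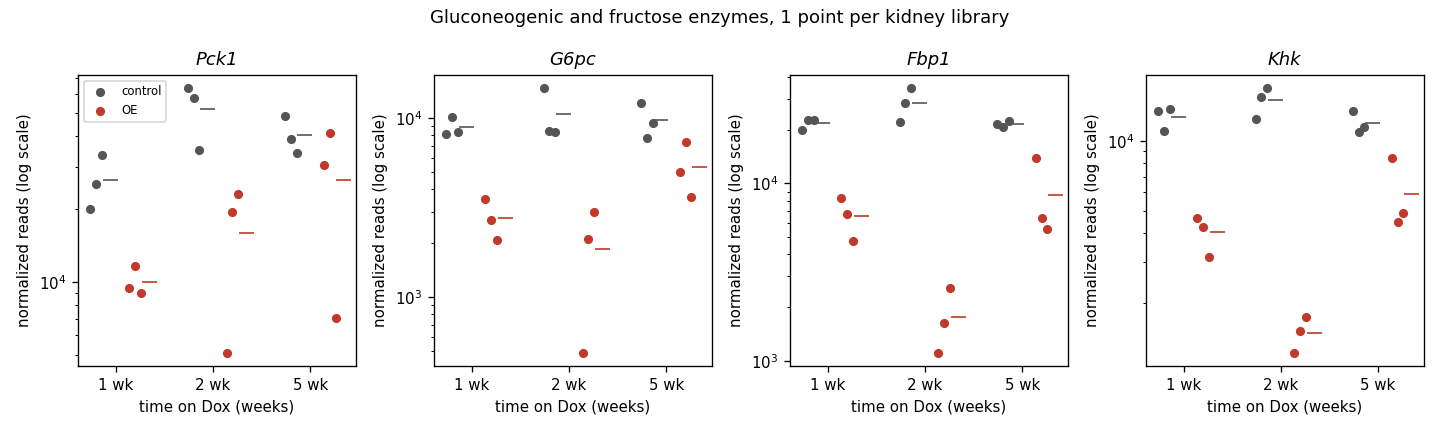
Normalized reads (y axis, log scale) of *Pck1*, *G6pc*, *Fbp1* and *Khk* by weeks of Dox (x axis), 1 point per library in the order of replicates 1 to 3, with short lines for group means. OE points lie below the controls of their week in every panel except *Pck1* at 5 weeks, and *Fbp1* at 2 weeks runs from 1108 to 2561 against 22183 to 34491.

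Related genes were counted in limma. Beside these counts, 18.7% of all tested genes rose and 15.6% fell at 1 week. At 2 weeks 28.9% rose and 28.8% fell, and at 5 weeks 7.67% and 7.9%. Of 12 further gluconeogenic, glycerol and fructose genes 8 fell and 1 rose at 1 week, while 10 fell at 2 weeks and 7 at 5 weeks, and their medians on the log2 scale were -1.05, -2.40 and -0.69. At 2 weeks the largest falls among them were *Sord*, sorbitol dehydrogenase, at -3.47, and *Gk*, glycerol kinase, at -3.32. Of 17 sugar, lactate and pyruvate transporters 9 fell against 1 that rose at 1 week, 11 against 3 at 2 weeks, then 6 against 3 at 5 weeks. *Slc5a2*, the sodium-glucose carrier SGLT2 of the proximal tubule, was at a log2 fold change of -4.02 and *Slc2a2*, the basolateral carrier GLUT2, at -3.38 at 2 weeks. *Slc2a6*, a hexose transporter described in myeloid cells, was at 4.02 and *Slc2a3*, the carrier GLUT3, at 1.52. Of 21 transcription factors and cofactors that act on these enzymes 7 fell against 2 that rose at 1 week, 9 against 6 at 2 weeks, then 2 against 2 at 5 weeks. *Hnf4a*, a nuclear receptor of the proximal tubule, was at -2.21 and *Mlxipl*, the glucose-responsive factor ChREBP, at -2.15, while *Myc* was at 2.64 and *Creb3l3* at 1.70 at 2 weeks. The proximal tubule markers had 12, 16 and 8 of 16 lower, at medians of -1.70, -4.53 and -1.26, and include *Slc5a2* and *Hnf4a*.

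The glycolytic genes had medians nearer to 0, and not every step fell. Of the 19 genes 6 fell and 2 rose at 1 week, 13 fell and 3 rose at 2 weeks, and 7 fell and 0 rose at 5 weeks, with median log2 fold changes of -0.12, -0.80 and -0.31. Over all tested genes 15.6%, 28.8% and 7.9% fell and 18.7%, 28.9% and 7.67% rose. The 0 of the 19 that rose at 5 weeks in limma compares with 1 gene, *Hk2*, at an unadjusted p under 0.05, and with 0 by edgeR and by DESeq2. Under quantile normalization 3 glycolytic genes fell and 4 rose at 1 week. Markers of the thick ascending limb had 2, 4 and 4 of 5 lower at the 3 times, those of the distal convoluted tubule 5, 6 and 5 of 6, and those of the collecting duct 3, 3 and 1 of 7, and their part in these counts was not tested.

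The entry step moved in opposite directions for different hexokinases. *Hk1*, the widely expressed form, fell at 2 weeks (-0.66, adjusted p = 1.83e-04 from limma) and at 5 weeks (-0.77, adjusted p = 6.18e-04), from a control median of 6671 normalized reads. *Hk3*, a form typical of myeloid cells, was low in controls, at 11.1, 7.65 and 12.8 normalized reads at 1 week, then 11.6, 5.56 and 4.56 at 2 weeks, then 10.6, 8.20 and 13.3 at 5 weeks. OE kidneys held 71.8, 79.2 and 73.8 at 1 week, then 107, 38.3 and 73.7 at 2 weeks, then 55.8, 9.35 and 22.9 at 5 weeks. All OE libraries were higher at 1 and 2 weeks. It rose at 1 week by a log2 change of 2.75 (SE 0.52, limma adjusted p = 7.03e-04) and at 2 weeks by 3.14 (SE 0.52, limma adjusted p = 7.11e-05). At 5 weeks the groups overlapped, with 1.07 (SE 0.52, limma adjusted p = 0.18), and the value was 1.68 (adjusted p = 0.0397) without OE replicate 2 but 0.45 (adjusted p = 0.552) without OE replicate 1. Macrophage markers had 15, 16 and 15 of 16 higher at the 3 times and neutrophil markers 6, 7 and 3 of 7, and their part in the *Hk3* values was not tested. Over all tested genes 18.7%, 28.9% and 7.67% were higher.

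*Hk2*, the insulin-responsive form, varied widely between libraries, including the controls. At 2 weeks its normalized reads were 179, 480.0 and 37.6 in controls and 733, 356 and 412 in OE kidneys. At 5 weeks they were 228, 94.8 and 83.9 and 258, 414 and 446, with every OE library above every control. Neither difference passed, at 1.67 (SE 0.72, limma adjusted p = 0.0559) and 1.56 (SE 0.72, limma adjusted p = 0.155), and at 2 weeks the value was 2.51 (adjusted p = 0.0052) without control replicate 2 but 0.69 (adjusted p = 0.354) without control replicate 3. *Gpi1*, glucose-6-phosphate isomerase, held 7268, 7658 and 8131 against 6431, 6728 and 6835 at 1 week (-0.20, adjusted p = 0.153 from limma, or 0.07 under quantile normalization) and 8506, 9683 and 8454 against 5764, 6517 and 5738 at 2 weeks, when it fell (-0.56, adjusted p = 2.65e-04). At 5 weeks its values overlapped, 8357, 9126 and 9213 in controls and 7965, 10078 and 9982 in OE kidneys (0.06, adjusted p = 0.744).

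Among the subunits of phosphofructokinase, the main control point, the muscle type had the largest fall at 2 weeks. *Pfkm* lies on chromosome 15 from 98092589 to 98132451 and held 1901, 2046 and 2064 normalized reads in controls against 1236, 1105 and 934 in OE kidneys at 1 week, 2376, 2338 and 2226 against 389, 443 and 561 at 2 weeks and 2167, 2150.3 and 2343 against 1599, 1286 and 1368 at 5 weeks. The groups stood clear of each other at each time, at -0.88 (SE 0.13, limma adjusted p = 1.01e-04), -2.33 (SE 0.13, limma adjusted p = 1.89e-09) and -0.65 (SE 0.13, limma adjusted p = 0.00369). The liver-type *Pfkl* held 2956, 3359.7 and 3163 against 2888, 2735 and 3105 at 1 week, 4092, 3432 and 3581 against 1422, 1305 and 1703 at 2 weeks and 3685, 4424 and 4226 against 2704, 2342 and 3141 at 5 weeks. It fell at 2 weeks (-1.33, adjusted p = 2.00e-07 from limma) and 5 weeks (-0.60, adjusted p = 0.00481), and at 1 week its libraries overlapped (-0.12, adjusted p = 0.499).

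The platelet-type subunit *Pfkp* passed at no time, although its OE libraries all lay above the controls at 1 week and all below them at 2 weeks. It held 2269.7, 2448 and 2289 against 2707, 2586 and 2788 at 1 week, 2695, 2760.0 and 3176 against 2631, 2155 and 2405 at 2 weeks and 2557, 4447 and 3455 against 2537, 3157 and 3259.9 at 5 weeks. Its log2 fold changes were 0.21 (adjusted p = 0.336), -0.26 (adjusted p = 0.159) and -0.20 (adjusted p = 0.43) from limma, with 95% intervals of -0.13 to 0.54, -0.60 to 0.07 and -0.53 to 0.13. *Pfkfb3* makes fructose 2,6-bisphosphate, the strongest activator of phosphofructokinase. It held 903, 1011 and 1234 normalized reads in controls and 1110.0, 957 and 1222 in OE kidneys at 1 week, 895, 1164 and 669 and 1478, 2380.0 and 2177 at 2 weeks, and 1439, 1219.6 and 889 and 1002, 1452 and 1184 at 5 weeks. The groups were apart at 2 weeks alone, when it rose by 1.15 (SE 0.23, limma adjusted p = 3.95e-04). With the libraries above 100 normalized reads of *Ddx3y* alone, where 1 OE library is left at 2 weeks, the value was 0.74 (adjusted p = 0.0694). Its effect at 2 weeks exceeded that at 5 weeks, at -1.10 (adjusted p = 0.0172) for 5 minus 2 weeks.

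From aldolase to enolase all 6 members fell at 2 weeks in limma: *Aldoa*, the aldolase that splits fructose 1,6-bisphosphate, at -0.56 (adjusted p = 6.64e-04), turning to 0.13 (adjusted p = 0.459) under quantile normalization, *Tpi1*, triose phosphate isomerase, at -0.90 (adjusted p = 2.42e-05), *Gapdh* at -0.80 (adjusted p = 2.13e-05), *Pgk1* at -1.15 (adjusted p = 1.52e-06), *Pgam1* at -1.15 (adjusted p = 3.75e-06) and *Eno1* at -0.97 (adjusted p = 8.50e-07). *Gapdh*, glyceraldehyde-3-phosphate dehydrogenase and a common reference gene, held 15003, 16124 and 18438 normalized reads in controls against 11096, 10509 and 9681 in OE kidneys at 1 week. At 2 weeks it held 16639, 19698 and 20146 against 12016, 10639 and 9734, and at 5 weeks 15018, 14874 and 15434 against 12193, 11349.7 and 12933. All 9 OE libraries lay below all 9 controls. The log2 change was -0.66 (SE 0.12, limma adjusted p = 4.45e-04) at 1 week, and -0.32 (SE 0.12, limma adjusted p = 0.0795) at 5 weeks, which did not pass in limma but did with DESeq2 at -0.31 (adjusted p = 0.0316).

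*Pgk1*, phosphoglycerate kinase, makes the first ATP of the pathway and lies on the X chromosome. It held 7248, 6389 and 7382 against 4764, 4131 and 4049.9 at 1 week, 6252, 7003 and 8192 against 3677, 3103 and 2870.0 at 2 weeks and 6772, 6948 and 6701 against 5309, 3934 and 4803 at 5 weeks. It fell at all 3 times, at -0.70 (adjusted p = 6.64e-04), -1.15 (adjusted p = 1.52e-06) and -0.55 (adjusted p = 0.00996) from limma, although at 5 weeks not without OE replicate 2 (-0.43, adjusted p = 0.0564). *Pgam1*, phosphoglycerate mutase, held 1071, 1243 and 1274 against 1126, 1006 and 1067 at 1 week, 1085, 1497 and 1407 against 613, 654 and 525 at 2 weeks and 1046, 1334 and 1279.7 against 862, 706 and 890.3 at 5 weeks. Its libraries overlapped at 1 week (-0.16, adjusted p = 0.406) and were apart at 5 weeks (-0.57, adjusted p = 0.0124), a call lost without control replicate 2 (-0.50, adjusted p = 0.0598), control replicate 3 (-0.53, adjusted p = 0.0534) or OE replicate 2 (-0.47, adjusted p = 0.0654). *Eno1*, enolase, fell at each time, with -0.34 (adjusted p = 0.0183) at 1 week and -0.46 (adjusted p = 0.00764) at 5 weeks. At 1 week that call was lost without control replicate 3 (-0.33, adjusted p = 0.0535), OE replicate 2 (-0.31, adjusted p = 0.0678) or OE replicate 3 (-0.34, adjusted p = 0.054). *Tpi1* did not pass at 1 week (-0.19, adjusted p = 0.304) or 5 weeks (-0.31, adjusted p = 0.13), and was at 0.24 at 1 week under quantile normalization. *Aldoa* did not pass either, at -0.05 and -0.03. Under quantile normalization it was at 0.50 at 1 week, where it passed as a rise, and at 0.35 at 5 weeks, where it did not pass. Reads of *Gapdh*, *Aldoa*, *Tpi1*, *Pgk1*, *Pgam1*, *Eno1* and *Ldha* can be shared with near-identical pseudogenes or copies such as *Eno1b*, which makes their levels less certain.

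Pyruvate kinase and lactate genes differed among themselves. *Pkm*, the widely expressed pyruvate kinase, held 11392, 11646 and 9889.8 normalized reads in controls against 11178, 11019 and 12076 in OE kidneys at 1 week, 13772, 11396 and 12679 against 15775, 14448 and 11418 at 2 weeks and 12618, 15440.2 and 14750.1 against 9819, 9881 and 10199 at 5 weeks. The groups overlapped at 1 week (0.06, adjusted p = 0.748 from limma) and at 2 weeks (0.13, adjusted p = 0.404), and at 5 weeks all OE libraries were lower (-0.51, adjusted p = 0.0127), a call lost without control replicate 2 (-0.45, adjusted p = 0.0613) or control replicate 3 (-0.49, adjusted p = 0.0526). *Pkm* was at 0.42 (adjusted p = 0.0298) and 0.63 (adjusted p = 0.00111) at 1 and 2 weeks under quantile normalization. *Pklr*, the liver and red cell form, which is also made in the proximal tubule, held 484, 673 and 815 against 932, 779 and 469.5 at 1 week, 622, 1004 and 1049 against 338, 372 and 494 at 2 weeks and 867, 593 and 556 against 708, 410.4 and 517 at 5 weeks. *Pklr* fell at 2 weeks alone (-1.13, adjusted p = 0.00307). Of 5 red blood cell markers 5 fell at 1 and 2 weeks and 2 at 5 weeks, and their part in the *Pklr* values was not tested. Over all tested genes 15.6%, 28.8% and 7.9% fell at the 3 times.

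*Ldhb*, the heart-type lactate dehydrogenase subunit and the most abundant member per length, held 36834, 26128 and 34284 against 21505, 23798 and 17804 at 1 week. At 2 weeks it held 36365, 30586 and 34134 against 9543, 10466 and 13556, and at 5 weeks 36233, 34688 and 37758 against 25280.3, 25161 and 27339. No OE library reached its controls, and the log2 changes were -0.62 (SE 0.16, limma adjusted p = 0.00708), -1.60 (SE 0.16, limma adjusted p = 3.86e-07) and -0.48 (SE 0.16, limma adjusted p = 0.0518), the last short of the threshold. *Ldha*, the muscle-type subunit, fell at 2 weeks to 50.1% of its control level (adjusted p = 1.61e-05 from limma) and in limma at 1 week (-0.40, adjusted p = 0.0372), where quantile normalization gave 0.0049 and the call was lost on leaving out any 1 of the 6 libraries, at -0.37 to -0.44 with adjusted p of 0.0539 to 0.0994. At 5 weeks it was at -0.18 (adjusted p = 0.435), or 0.05 under quantile normalization. *Slc16a3*, the lactate exporter MCT4, stood low in controls, at 100.3, 89.6 and 38.3 normalized reads at 1 week, then 71.0, 53.3 and 41.0 at 2 weeks, then 109, 110.3 and 58.3 at 5 weeks. OE kidneys held 138, 134 and 164 at 1 week, then 195, 158 and 161 at 2 weeks, then 80.2, 89.8 and 97.6 at 5 weeks. OE libraries were all higher at 1 and 2 weeks and mixed with controls at 5 weeks. It rose at 1 week by 1.03 (SE 0.33, limma adjusted p = 0.0226), a call lost without control replicate 3 (0.60, adjusted p = 0.129) or OE replicate 3 (0.94, adjusted p = 0.0801), and at 2 weeks by 1.65 (SE 0.33, limma adjusted p = 4.07e-04). At 5 weeks it was at 0.00 (adjusted p = 0.999).

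**Figure D3:**
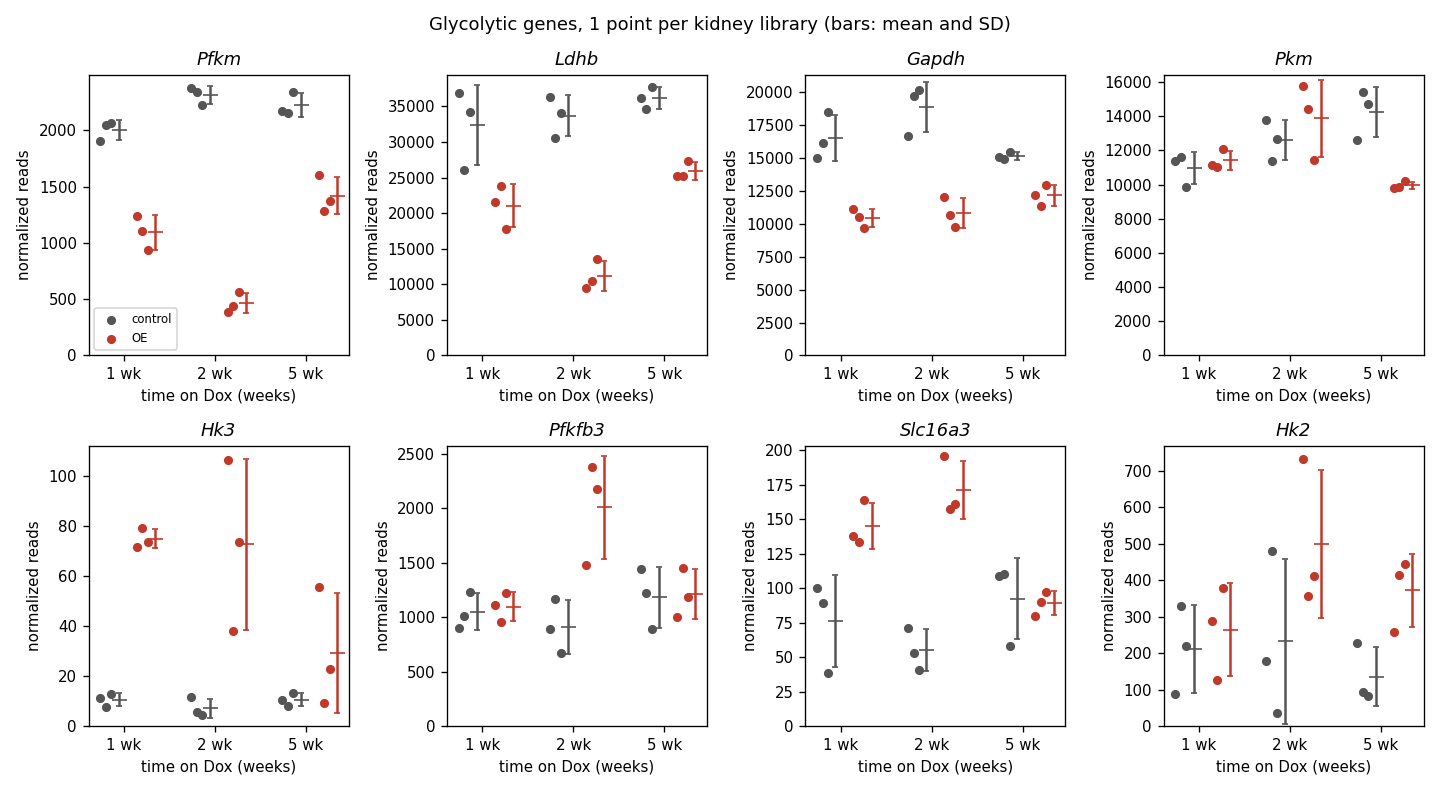
Normalized reads (y axis, from 0) of 8 glycolytic genes by weeks of Dox (x axis), 1 point per library, with bars for the mean and SD of 3. *Pfkm*, *Ldhb* and *Gapdh* lie lower in every OE library, *Pfkm* at 389 to 561 against 2226 to 2376 at 2 weeks, while *Hk3*, *Pfkfb3* and *Slc16a3* lie higher at 2 weeks and *Pkm* overlaps there.

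ACGTG stood in 17 of the 43 promoters, of 14 members, 12 of them glycolytic, where 19.6% of all promoters hold it. Among the glycolytic members with ACGTG, *Aldoa*, *Gapdh*, *Hk1*, *Ldha*, *Pfkm*, *Pgam1* and *Pgk1* fell at 2 weeks in limma. *Hk3*, *Pfkfb3* and *Slc16a3* rose then, and *Hk2* and *Pkm* did not pass. The *Slc16a3* promoter is shown as that of a glycolytic gene that rose, with ACGTG in capitals.
Slc16a3 promoter (chr11:120948817-120949116, plus strand): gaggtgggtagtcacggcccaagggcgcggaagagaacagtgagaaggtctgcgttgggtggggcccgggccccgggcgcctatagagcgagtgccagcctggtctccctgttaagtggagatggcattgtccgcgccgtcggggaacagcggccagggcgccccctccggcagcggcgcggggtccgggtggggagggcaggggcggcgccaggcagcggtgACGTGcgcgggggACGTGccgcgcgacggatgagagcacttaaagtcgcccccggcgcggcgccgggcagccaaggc
Its matches begin 27 and 14 bases before the start. Beside the counts that follow, 18.7%, 28.9% and 7.67% of all tested genes rose at the 3 times and 15.6%, 28.8% and 7.9% fell. Of 14 HIF targets outside glycolysis 3 rose and 4 fell at 1 week, 4 rose and 6 fell at 2 weeks, and 2 fell at 5 weeks. At 2 weeks *Adm*, adrenomedullin, was at a log2 fold change of 2.10 and *Kdm3a*, a histone demethylase, at 1.37, against *Car9*, a carbonic anhydrase, at -2.89 and *Vegfa* at -1.86. Further glycolytic isoenzymes and regulators gave 4 higher against 4 lower of 19 at 1 week, 6 against 9 at 2 weeks, then 2 against 5 at 5 weeks. Their median log2 fold changes were -0.17, -0.43 and -0.03. The summed normalized reads of the 21 listed, in which abundant genes weigh most, were lower in every OE library than in its controls. They ran from 162855 to 173054 in controls against 58211 to 78819 with OE at 1 week. At 2 weeks 153705 to 192168 stood against 23877 to 39193.5, and at 5 weeks 138499 to 177077 against 86675 to 126410. Among these isoenzymes and regulators *Eno2*, the neuronal enolase, was at 1.94 and *Pfkfb4* at 1.59, while *Galm*, galactose mutarotase, was at -2.66 at 2 weeks.

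Ratios of isoenzymes within a library, in which the size factor all but cancels, were compared as well. They are given as log2 ratios of normalized reads + 1, as a description and with no test. *Pfkp* over *Pfkm* was 0.22 ± 0.063 (SD, n = 3) in controls and 1.31 ± 0.236 (SD, n = 3) in OE kidneys at 1 week, then 0.31 ± 0.177 against 2.38 ± 0.339 at 2 weeks, then 0.62 ± 0.408 and 1.07 ± 0.352 at 5 weeks, where libraries overlapped. *Pfkl* over *Pfkm* was 0.66 ± 0.0526 and 1.42 ± 0.273 at 1 week and 0.67 ± 0.116 and 1.67 ± 0.168 at 2 weeks, and overlapped at 5 weeks. *Hk3* over *Hk1* was higher by 2.87, 3.80 and 1.84, apart at each time, and *Hk2* over *Hk1* by 2.33 and 2.34 at 2 and 5 weeks, also apart, with 0.49 and overlap at 1 week. *Pkm* over *Pklr* was higher by 1.26 at 2 weeks alone, with differences of -0.06 and -0.20 and overlap at 1 and 5 weeks. *Ldha* over *Ldhb* overlapped at all 3 times, with OE minus control at 0.22, 0.61 and 0.31. Against the reverse step, *Pfkl* over *Fbp1* was higher in OE by 1.64, 2.73 and 0.86, with overlap at 5 weeks, and *Pkm* over *Pck1* by 1.43, 2.07 and 0.44, again with overlap at 5 weeks.

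**Figure D4:**
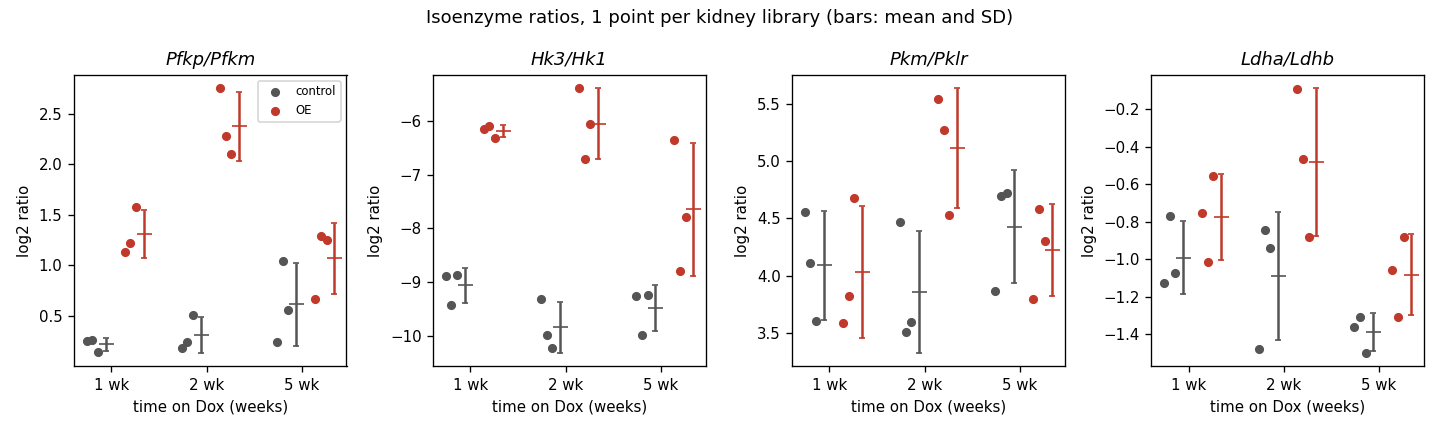
Log2 ratios (y axis) of 4 isoenzyme pairs by weeks of Dox (x axis), 1 point per library, with bars for the mean and SD of 3. *Pfkp*/*Pfkm* reaches 2.10 to 2.75 in OE kidneys at 2 weeks against 0.18 to 0.51 in controls, while the points of *Ldha*/*Ldhb* overlap at each time.

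The pentose phosphate genes had calls at all 3 times. Of 7 genes 3 fell at 1 week, 3 fell and 1 rose at 2 weeks, and 1 fell and 2 rose at 5 weeks, with medians of -0.25, -0.21 and -0.09. Among all tested genes 15.6%, 28.8% and 7.9% fell and 18.7%, 28.9% and 7.67% rose at the 3 times. The 0 that rose at 1 week from limma was also 0 at an unadjusted p under 0.05, with edgeR and with DESeq2. The genes that rose, *G6pdx* and *Pgd*, belong to the oxidative branch and those that fell, *Tkt*, *Taldo1* and *Rpe*, to the non-oxidative branch, while *Pgls* of the first and *Rpia* of the second passed at no time, and the branches were not compared in a test. The log2 ratio of *G6pdx* over *Rpia*, 1 gene of each branch, was higher in OE by 0.14, 0.62 and 0.50. Its libraries overlapped at all 3 times. *G6pdx*, glucose-6-phosphate dehydrogenase, the first step and source of NADPH, lies on chromosome X from 74409483 to 74429194. Its promoter is 1 of 7 of the 43 that hold TGACNNNGC or its complement, found in 12.4% of all promoters. The others belong to *Aldoa*, *Fbp1*, *G6pc*, *Hk1* and *Pklr*, which fell at 2 weeks in limma, and *Pgd*, which did not pass then. The match in *G6pdx* is shown in capitals.
G6pdx promoter (chrX:74428831-74429130, minus strand): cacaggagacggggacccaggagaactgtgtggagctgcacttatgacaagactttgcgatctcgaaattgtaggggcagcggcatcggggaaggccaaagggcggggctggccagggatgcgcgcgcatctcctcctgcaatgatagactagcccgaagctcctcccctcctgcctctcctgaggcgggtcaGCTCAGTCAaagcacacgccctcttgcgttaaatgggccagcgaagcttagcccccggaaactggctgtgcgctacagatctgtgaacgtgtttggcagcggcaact
It held 969, 906 and 838 normalized reads in controls against 1005, 1061 and 1092 in OE kidneys at 1 week, 950.3, 1070.0 and 901 against 1389, 1313 and 1176 at 2 weeks and 934, 1006 and 948 against 1075, 1360.3 and 1448 at 5 weeks. Every OE library lay above every control of its week. The log2 change was 0.22 (SE 0.12, limma adjusted p = 0.156), 0.41 (SE 0.12, limma adjusted p = 0.00627) and 0.42 (SE 0.12, limma adjusted p = 0.0231). At 5 weeks the call was lost without control replicate 1 (0.39, adjusted p = 0.0704), control replicate 3 (0.41, adjusted p = 0.0742), OE replicate 2 (0.37, adjusted p = 0.0888) or OE replicate 3 (0.33, adjusted p = 0.124). The gene is X-linked, and among libraries with *Ddx3y* above 100 normalized reads the values were 0.50 (adjusted p = 0.0538) and 0.36 (adjusted p = 0.202) at 2 and 5 weeks.

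*Pgd*, 6-phosphogluconate dehydrogenase, the second NADPH step, held 2838, 3027 and 2682 against 3176, 3753 and 3003 at 1 week, 3030.3, 3180.0 and 3062 against 4639, 3831 and 3134 at 2 weeks and 3234, 2880.4 and 3118 against 3869, 4483 and 6258 at 5 weeks. The groups overlapped at 1 and 2 weeks, and OE replicate 3 at 5 weeks was the highest library. It rose at 5 weeks (0.63, adjusted p = 0.0131 from limma), not without control replicate 2 (0.59, adjusted p = 0.0551) or OE replicate 3 (0.44, adjusted p = 0.077). At 1 week it was at 0.21 (adjusted p = 0.328) and at 2 weeks at 0.31 (adjusted p = 0.111), passing there without OE replicate 3 (0.45, adjusted p = 0.0293) but at 0.17 (adjusted p = 0.407) without OE replicate 1. *Pgls*, 6-phosphogluconolactonase, between these steps, did not pass at any time. It held 1625, 1337 and 1425 against 1224, 1268 and 1188 at 1 week, 1526, 1572 and 1714 against 2086, 1223 and 1227 at 2 weeks and 1756, 1543 and 1813 against 1511, 1869.8 and 1935 at 5 weeks, and at 2 weeks OE replicate 1 lay above all controls while the other two lay below them (-0.13, adjusted p = 0.521). Without that library the value was -0.39 (adjusted p = 0.0127).

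*Tkt*, transketolase, which moves 2-carbon units between sugars, held 8689, 10044 and 8474 against 6926, 7489 and 5740.1 at 1 week, 10196, 9986 and 9937 against 4255, 4367 and 4526 at 2 weeks and 10448, 7862 and 9316 against 7102, 5161 and 7352 at 5 weeks. OE libraries were lower throughout and close to each other at 2 weeks. It fell at 1 week (-0.44, adjusted p = 0.0248 from limma), at 2 weeks (-1.20, adjusted p = 2.32e-06) and at 5 weeks (-0.50, adjusted p = 0.0247). The call was lost at 1 week without control replicate 2 (-0.36, adjusted p = 0.101) or OE replicate 3 (-0.33, adjusted p = 0.127), and at 5 weeks without control replicate 1 (-0.41, adjusted p = 0.106), control replicate 3 (-0.49, adjusted p = 0.0779) or OE replicate 2 (-0.34, adjusted p = 0.13). *Rpe*, ribulose-5-phosphate epimerase, held 1365, 1176 and 1223 against 1045, 764 and 875 at 1 week, 1014, 1167 and 1186 against 641, 421 and 549 at 2 weeks and 964, 1069 and 1048 against 1002, 785 and 944 at 5 weeks. It fell at 1 week (-0.50, adjusted p = 0.0183), not without control replicate 1 (-0.43, adjusted p = 0.0695), OE replicate 2 (-0.39, adjusted p = 0.0903) or OE replicate 3 (-0.49, adjusted p = 0.0543), and at 2 weeks (-1.08, adjusted p = 1.42e-05), and overlapped at 5 weeks (-0.18, adjusted p = 0.462).

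*Taldo1*, transaldolase, fell at 1 week (-0.50, adjusted p = 0.0164 from limma), not without OE replicate 3 (-0.47, adjusted p = 0.0582), and at 2 weeks (-0.61, adjusted p = 0.00227), when the OE kidneys held 6991, 4607 and 4202 against 6844, 8402 and 8377 and replicate 1 lay inside the control range. *Rpia*, ribose-5-phosphate isomerase, held 546, 565 and 658 against 617, 615 and 639.5 at 1 week, 602, 569 and 638 against 763, 420.3 and 440.4 at 2 weeks and 891, 542 and 761 against 685, 587 and 765 at 5 weeks. It passed at no time, at 0.08 (adjusted p = 0.781), -0.21 (adjusted p = 0.399) and -0.09 (adjusted p = 0.823), and without OE replicate 1 at 2 weeks the value was -0.48 (adjusted p = 0.0262). For *Taldo1*, *Pgls* and *Rpia* alike, that library stood above the other OE libraries of its week. It did so too for *G6pdx*, *Pgd* and *Rpe* and for glycolytic genes such as *Gapdh* and *Ldha*. For *Tkt*, *Pfkm* and *Ldhb* it was the lowest of its group.

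**Figure D5:**
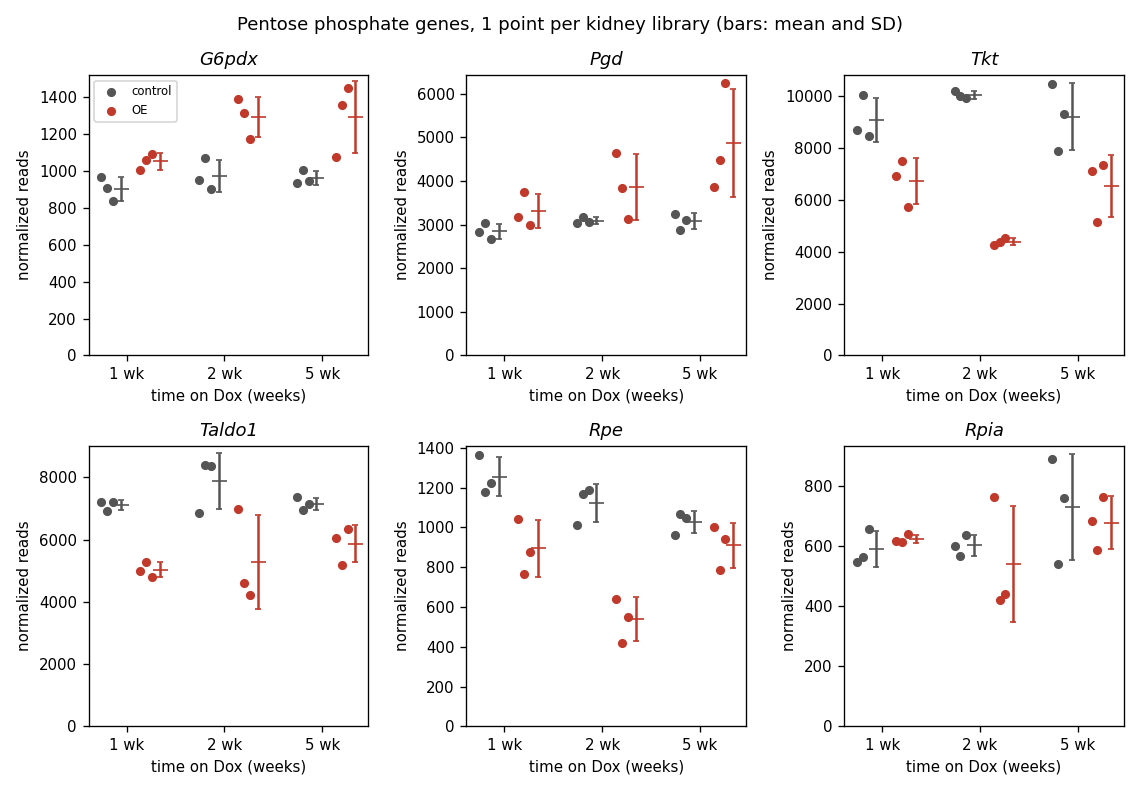
Normalized reads (y axis, from 0) of 6 pentose phosphate genes by weeks of Dox (x axis), 1 point per library, with bars for the mean and SD of 3. *G6pdx* is higher in every OE library than in the controls of its week and *Tkt* is lower, at 4255 to 4526 against 9937 to 10196 at 2 weeks, and for *Taldo1* and *Rpia* 1 OE library at 2 weeks stands above the other two.

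Neighbouring genes of the pathway and NRF2 targets gave calls in both directions. Beside them, 18.7% of all tested genes rose and 15.6% fell at 1 week. At 2 weeks 28.9% rose and 28.8% fell, and at 5 weeks 7.67% and 7.9%. Of 7 further pentose phosphate genes 3 rose and 4 fell at 1 week, 2 rose and 4 fell at 2 weeks, and 1 rose and 1 fell at 5 weeks. *H6pd*, the endoplasmic reticulum counterpart of the first dehydrogenases, was at log2 fold changes of 0.86, 0.82 and 0.80 at the 3 times and passed at each. *Prps2*, a phosphoribosyl pyrophosphate synthetase, was at -2.01 and *Rbks*, ribokinase, at -1.68 at 2 weeks. Of 11 NRF2 targets outside the pathway 5 rose and 2 fell at 1 week, 5 rose and 4 fell at 2 weeks, and 4 rose and 1 fell at 5 weeks. *Slc7a11*, the cystine carrier, was at 5.26 and *Hmox1*, heme oxygenase, at 3.18, against *Me1*, the malic enzyme that also yields NADPH, at -2.77 and *Gclm*, a subunit of glutathione synthesis, at -1.02 at 2 weeks.

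Across time, the OE effect was more negative at 2 weeks than at 1 week for 9 members and more positive for 1 (6.8% and 2.27% of all genes), and more positive at 5 weeks than at 2 weeks for 16 and more negative for 4 (14.9% and 14.4%), by limma's interaction test. The 4 were *Hk3*, *Pfkfb3*, *Pkm* and *Slc16a3*. Between 5 weeks and 1 week 1 member differed, *Hk1*, with -0.65 (adjusted p = 0.0297), where 5.2% of all genes were more negative and 1.79% more positive, and 0 were more positive, also at an unadjusted p under 0.05, with edgeR and with DESeq2. *Hk1* ran in controls from 5739 to 6399 normalized reads at 1 week and from 7037 to 9271 at 5 weeks, without overlap. In OE kidneys it ran from 5177 to 5968 and from 4615 to 5251, with overlap. The controls themselves gave no member past the test between any 2 times, where 0.0177%, 0.0883% and 0% of all genes passed from 1 to 2, 2 to 5 and 1 to 5 weeks. At an unadjusted p under 0.05 limma gave 1, 2 and 4 members there, and edgeR and DESeq2 gave 0 each. The median log2 change of the 30 between controls was 0.15, -0.06 and 0.11 over these spans. Over all genes it was 0.01, -0.01 and -0.005. Movement of the controls is part of each interaction value.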

How the data were processed

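Kidney RNA was polyA-selected, prepared with an NEBNext Ultra II kit and sequenced, giving 18 libraries, 3 in each of 6 groups. Per the labels and the study's methods, the authors aligned with STAR to mm10, took gene counts from HTSeq and scaled these by DESeq2 size factors, and the deposited signal values are these normalized reads. Versions and the strand setting of the counting are not given in the sources used here. Whole reads were recovered for 100% of values within a tolerance of 0.001.

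The test was limma (3.58.1, R 4.3.3) on log2(value + 1), 1 fit of 18 libraries with a trend of variance on level, over genes with a mean above 10, and p-values were adjusted by Benjamini-Hochberg over all of them. A call needed an adjusted p under 0.05, and for the study's stricter criteria also a log2 fold change beyond 1. The script was tested on simulated data. Members and lists were chosen with earlier results of these data known, and counts on lists are descriptions. All members could be named. Values by library were given for members past the test at 2 weeks with a log2 fold change beyond 1, for those whose sign differed between weeks, and for *Gapdh*, with *G6pdx*, *Pgd*, *Taldo1* and *Hk2* added after their values were seen. From each other list at most the 2 largest rises and falls at 2 weeks were named. Alternatives were pseudocounts of 0.5 and 5, no filter or a mean above 50, quantile and upper-quartile scaling, edgeR 4.0.16 with TMM and DESeq2 1.42.0 on recovered reads, the compared groups alone, robust moderation, the replicate block, libraries with *Ddx3y* above 100, all 9 controls, and each library left out. Coordinates are from GENCODE M21 (GRCm38), which 99.5% of gene identifiers matched. Plots used Python 3.11.15 and matplotlib 3.10.9.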

Additional observations from a re-analysis of the deposited data

Results flagged for a closer look

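The change of the OE effect between times, tested as an interaction in limma, passed an adjusted p of 0.05 for 31 pairs of a member and a time span, given here as differences of log2 fold changes. From 1 to 2 weeks the effect became more negative by these amounts: *Fbp1* -2.30, *Khk* -1.65, *Pfkm* -1.45, *Pfkl* -1.21, *Ldhb* -0.98, *Pgam1* -0.98, *Tkt* -0.76, *Tpi1* -0.72 and *Eno1* -0.63. It became more positive for *Pfkfb3*, at 1.08. Over all tested genes 6.8% became more negative and 2.27% more positive over this span. Of the 12 omissions of 1 library, the call was lost in 10 for *Pfkfb3*, 7 for *Tkt* and 6 for *Tpi1*, and in 0 for the other 7.

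From 2 to 5 weeks it became more positive for gluconeogenic and fructose enzymes, with *Fbp1* 2.61, *Khk* 2.26 and *G6pc* 1.89. Glycolytic genes followed with *Pfkm* 1.68, *Ldhb* 1.12, *Ldha* 0.82, *Pfkl* 0.73, *Gpi1* 0.63, *Pgk1* 0.60, *Tpi1* 0.59, *Pgam1* 0.57, *Aldoa* 0.52, *Eno1* 0.51 and *Gapdh* 0.49, and pentose phosphate genes with *Rpe* 0.90 and *Tkt* 0.69. It became more negative with *Hk3* -2.07, *Slc16a3* -1.65, *Pfkfb3* -1.10 and *Pkm* -0.64. Over all tested genes 14.9% became more positive and 14.4% more negative over this span. Of the 12 omissions, the call was lost in 9 for *Hk3*, 9 for *Gapdh*, 8 for *G6pc*, 8 for *Pgam1*, 6 for *Aldoa*, 6 for *Tpi1* and 3 for *Pgk1*, and in 0 for the other 13. From 1 to 5 weeks *Hk1* was at -0.65, lost in 7 of 12, where 5.2% of all genes were more negative and 1.79% more positive. Its controls were higher at 5 weeks than at 1 week without overlap, while its OE libraries overlapped. *Lin28a* itself was at a log2 fold change of 12.03 at 2 weeks and 4.48 at 5 weeks. Proximal tubule markers moved with these spans as well, and their part was not tested. Of these 16 markers 12 were more negative from 1 to 2 weeks (6.8% of all genes) and 15 more positive from 2 to 5 weeks (14.9%).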

How the results depend on the processing

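Over members and settings, 535 values at 1 week, 551 at 2 weeks and 526 at 5 weeks kept their side of the threshold, though 14, 2 and 22 values that had not passed turned sign, while 24, 9 and 31 no longer passed and 8, 8 and 12 came to pass. Quantile normalization turned *Aldoa* at 1 week from -0.05 to 0.50, which passed, *Ldha* at 1 week from -0.40 to 0.0049 and *Aldoa* at 2 weeks from -0.56 to 0.13. Among values that had not passed, it also turned *Hk1* to 0.08, *Gpi1* to 0.07 and *Tpi1* to 0.24 at 1 week, and *Aldoa* to 0.35, *Ldha* to 0.05 and *Slc16a3* to -0.20 at 5 weeks. It also gave 4 glycolytic genes higher and 3 lower at 1 week, 1 pentose phosphate gene lower at 1 week, 2 higher at 2 weeks and 0 lower at 5 weeks, and 10 members more positive from 2 to 5 weeks. With libraries above 100 normalized reads of *Ddx3y* alone, 1 glycolytic gene was higher at 1 week and 1 at 5 weeks, 2 were lower at 5 weeks, 1 gluconeogenic or fructose gene was lower at 5 weeks, 0 pentose phosphate genes were higher at 2 or 5 weeks or lower at 5 weeks, and 0 members were more positive from 1 to 2 weeks or more negative from 1 to 5 weeks. Fitting the compared groups alone gave 1 glycolytic gene higher at 1 week, 0 pentose phosphate genes higher and 0 lower at 5 weeks, 0 members more positive from 1 to 2 weeks and 2 more negative from 1 to 5 weeks. A mean above 50 gave 1 glycolytic gene higher at 1 week. No filter gave 0 members more positive from 1 to 2 weeks and 0 more negative from 1 to 5 weeks, upper-quartile rescaling 0 and DESeq2 2 of the latter. Against all 9 controls, chosen after seeing the data, 11 glycolytic genes were lower and 1 higher at 5 weeks and 2 pentose phosphate genes higher at 2 weeks. With 1 library left out, glycolytic genes higher at 1 week ranged from 1 to 2 and at 5 weeks from 0 to 1. Pentose phosphate genes lower at 1 week ranged from 0 to 3, higher at 2 weeks from 1 to 2, lower at 2 weeks from 3 to 5, higher at 5 weeks from 0 to 2 and lower at 5 weeks from 0 to 1. Members more positive from 1 to 2 weeks ranged from 0 to 1 and more negative from 1 to 5 weeks from 0 to 2. Where an omission left 2 libraries, the spread of all groups was pooled. Replicate numbers did not pair the libraries (same-number correlations -0.19 to 0.21, 2 of 9 above 0.1), and with the replicate number as a block 13 glycolytic genes were again lower at 2 weeks and 15 members, not 16, more positive from 2 to 5 weeks. The cause of these shifts was not tested, except that *Hk3* drops out above a mean of 50. Ratios kept their direction at pseudocounts of 0 and 5, with *Hk3* over *Hk1* at 1 week going from 2.87 to 2.50.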
